A study of Chlamydomonas reinhardtii with 4 samples.

Results

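H3K27ac peaks of DNMT1 knockout cells were compared between the mating types of the green alga Chlamydomonas reinhardtii, with 1 ChIP-seq library on each side. The mt+ (mating type plus) library came from a dnmt1 knockout of CC-5155 and the mt− (mating type minus) library from a dnmt1 knockout of CC-5325, both from cells in the vegetative stage. These lists held 14986 and 15323 peaks, which is 30309 of the 60364 peaks in the 4 lists of the series. The remaining lists are from wild type (WT) cells of the same strains and served here only as a second readout of the same sites. Strain and mating type changed together, and the labels do not say how the knockouts were made or whether each line is 1 clone. With 1 library per group nothing was tested, and all values below describe these libraries.

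H3K27ac, acetylation of lysine 27 of histone H3, marks active promoters and enhancers. DNMT1 belongs to the DNA methyltransferase family whose members keep cytosine methylation in place when DNA is copied. In Chlamydomonas, mating type is set by a locus on chromosome 6 whose plus and minus versions are rearranged against each other and do not recombine over most of their length; each version carries some genes the other lacks, such as the fusion gene FUS1 in mt+ and the regulator MID in mt−. The deposited lists name a separate sequence, mating_type_plus, beside chromosome_06, so peaks were described on mating_type_plus, on chromosome_06 and on all other sequences. The lists do not say whether reads of both strains align equally well to these sequences, so a missing peak means only that no peak passed the authors' threshold. No read counts are in the lists, so the depth behind each peak is unknown.

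Peaks that overlapped by 1 bp or more were called partners. Nearly all peaks had one. Of the dnmt1 mt+ peaks, 124 had no partner in dnmt1 mt− (0.827%, exact 95% Clopper-Pearson interval 0.689 to 0.986, which covers counting error only). In the reverse direction 514 dnmt1 mt− peaks had no partner (3.35%, interval 3.07 to 3.65). One-to-one pairs numbered 14558, and the other 304 mt+ and 251 mt− peaks belonged to groups in which a peak met more than one partner. The mt− list is the longer one. With its weakest peaks by −log10 q left out to match the length of the mt+ list, the unpartnered peaks numbered 257 in mt+ and 312 in mt−. By construction that cut can only lower the mt− count and raise the mt+ count. Few peaks lay near the overlap threshold. The smallest overlap among one-to-one pairs was 129 bp, on chromosomes 5 and 10, and 2 unpartnered peaks lay under 100 bp from a peak of the other list, at gaps of 38 bp (mt+, chromosome 6) and 58 bp (mt−, chromosome 1).

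On mating_type_plus most peaks of the mt+ knockout were unpartnered, and they ranged from weak to strong. Of 22 mt+ peaks 15 had no partner (68.2%, interval 45.1 to 86.1), and they made up 10.5 of the 17.0 kb covered by mt+ peaks there. Their fold enrichment, the authors' ratio of ChIP over control at the summit, ran from 2.11 to 7.77 with a median of 5.36, close to the median of 5.46 over the whole mt+ list. Strength was read as the percentile of a peak's −log10 q within its own list, since peak values depend on the library. The 15 peaks ran from percentile 3.83 to 94.2 with a median of 52.1, and 8 lay above the median of the list while 4 lay below percentile 20. All 15 also had a peak in WT mt+ and 0 had one in WT mt−. Over all 22 mt+ peaks of the sequence these shares were 100% and 31.8%, so the overlap with WT mt+ does not set the 15 apart.

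The 5 of them with the highest fold enrichment were spread over the first part of the sequence. The first, at mating_type_plus 124794 to 125748, had a fold enrichment of 7.77, lay at percentile 94.2 and was 19320 bp from the nearest mt− peak. It ranked about as high in WT mt+, at percentile 91.9. The next 4 started at 131650, 57422, 146621 and 161327, with fold enrichments of 6.91, 6.55, 6.32 and 5.95. Their percentiles were 82.3, 65.4, 82.8 and 47.9 in the knockout and 83.0, 51.0, 73.6 and 49.2 in WT mt+. Some stretches had no mt− peak at all for long distances: 8 mt+ peaks followed one another from 4942 to 143948, and 4 more from 161327 to 279275. The mt− knockout had 8 peaks on this sequence. Its 1 unpartnered peak, at 363994 to 364283, was weak, with a fold enrichment of 1.98 at percentile 3.79. It lay 446 bp from an mt+ peak and had a partner in both WT lists.

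The other 7 mt− peaks each paired with an mt+ peak, and 6 of them lay wholly inside a broader mt+ peak. The median width was 839 bp in mt+ and 459 bp in mt−, and the median ratio of mt− over mt+ width was 0.465. Among all one-to-one pairs only 0.309% were narrower in mt− by at least 1.5 times, whereas here 6 of 7 were. The exception was the pair at the start of the sequence (1786 to 2224 in mt+, 1782 to 2240 in mt−), with 439 and 459 bp. The most unequal pair was the last one, where an mt+ peak at 361627 to 363044 spanned 1418 bp and the mt− peak inside it, at 361996 to 362261, spanned 266 bp. Next came 353244 to 354612 with 1369 and 537 bp, 159536 to 160231 with 696 and 278 bp, and 155292 to 156130 with 839 and 390 bp. The peaks at 144969 to 145745 and 149291 to 150218 differed least of the 6 narrower pairs, with 777 against 488 bp and 928 against 606 bp.

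**Figure D1:**
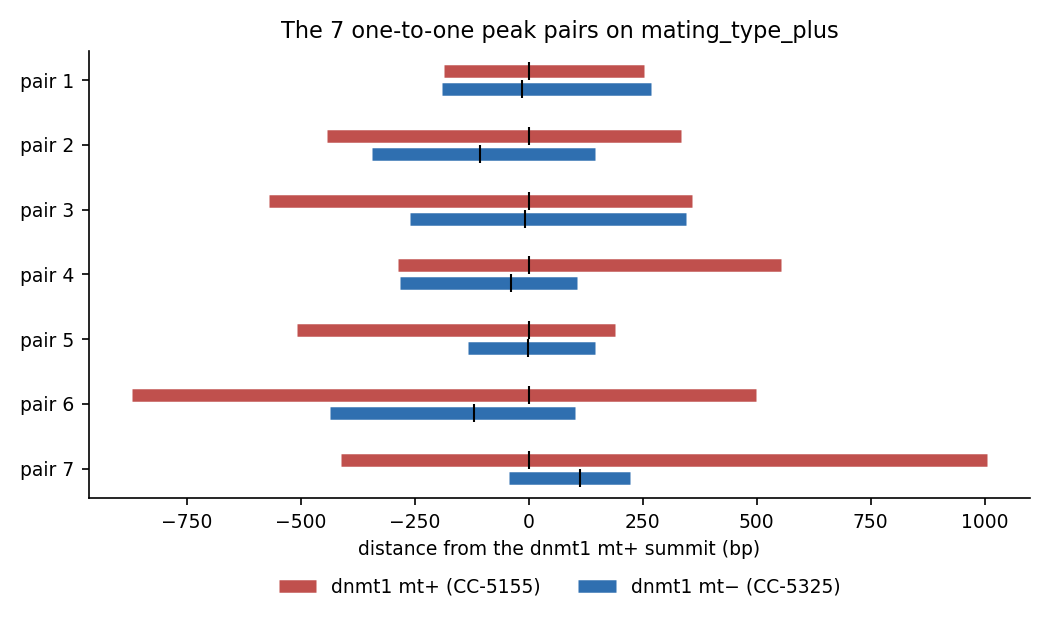
Intervals of the 7 one-to-one pairs on mating_type_plus, in order along the sequence, with distance from the dnmt1 mt+ summit in bp on the x axis and a tick at each summit. The mt− interval lies inside the mt+ interval in pairs 2 to 7, and the summits are 2 to 121 bp apart.

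The narrow mt− peaks kept their place under the mt+ peaks. Over the 7 pairs, summits were 2 to 121 bp apart, with a median of 40 bp. The same sites showed the same difference in width without the knockout: the log2 ratio of mt− over mt+ width at pairs 2 to 7 was -0.67, -0.61, -1.11, -1.32, -1.35 and -2.41 in the knockouts and -0.58, -0.45, -1.04, -1.87, -1.56 and -2.35 in WT. In WT the last pair measured 1420 and 279 bp. The WT pair shares no ChIP library with the knockout pair, although per the labels the input came from a data set on another mark, and which library used which input is not stated.

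Within-list ranks were also lower in mt− on this sequence. The percentile of −log10 q was at least 10 points lower in mt− at 6 of the 7 pairs, against 12.5% of all one-to-one pairs, and the median difference was -25.7 points. The peak at 144969 fell furthest, from percentile 83.3 in mt+ to 21.1 in mt−, and stood at 76.9 and 22.3 in the WT lists. The last pair had 77.5 and 24.3, with 68.1 and 20.9 in WT. Other pairs differed between genotypes. The pair at 353244 had 84.5 and 48.3 in the knockouts but 54.4 and 53.3 in WT, and the difference changed sign at 1786 (-14.1 points, 2.47 in WT), 149291 (-10.3, 2.22 in WT) and 159536 (7.26, -12.5 in WT). This rank depends on the value that sets it. Ranked by fold enrichment, the pairs at 149291 and 155292 stood higher in mt− than in mt+, at percentiles 92.8 against 53.7 and 41.9 against 37.2, and the difference at 144969 was -36.8 points instead of -62.2, smaller than the -39.2 of the last pair.

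On chromosome 6 the imbalance ran the other way. Of 1331 mt− peaks 112 had no partner (8.41%, interval 6.98 to 10.0), against 10 of 1234 mt+ peaks (0.810%, interval 0.389 to 1.49). On all other sequences these shares were 2.87% (401 of 13984) in mt− and 0.721% (99 of 13730) in mt+. Most of the mt− peaks concerned lay at the start of the chromosome: 75 of the 112 were in the first 1 Mb, a stretch chosen after the values were seen. There 35.7% of 210 mt− peaks were unpartnered (interval 29.2 to 42.6), and over the rest of the chromosome 3.30% of 1121 (interval 2.33 to 4.52). Each of the 4 bins of 250 kb in the first 1 Mb held 16 to 21 of them. Beyond 5 Mb there were 9 among 552 peaks.

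**Figure D2:**
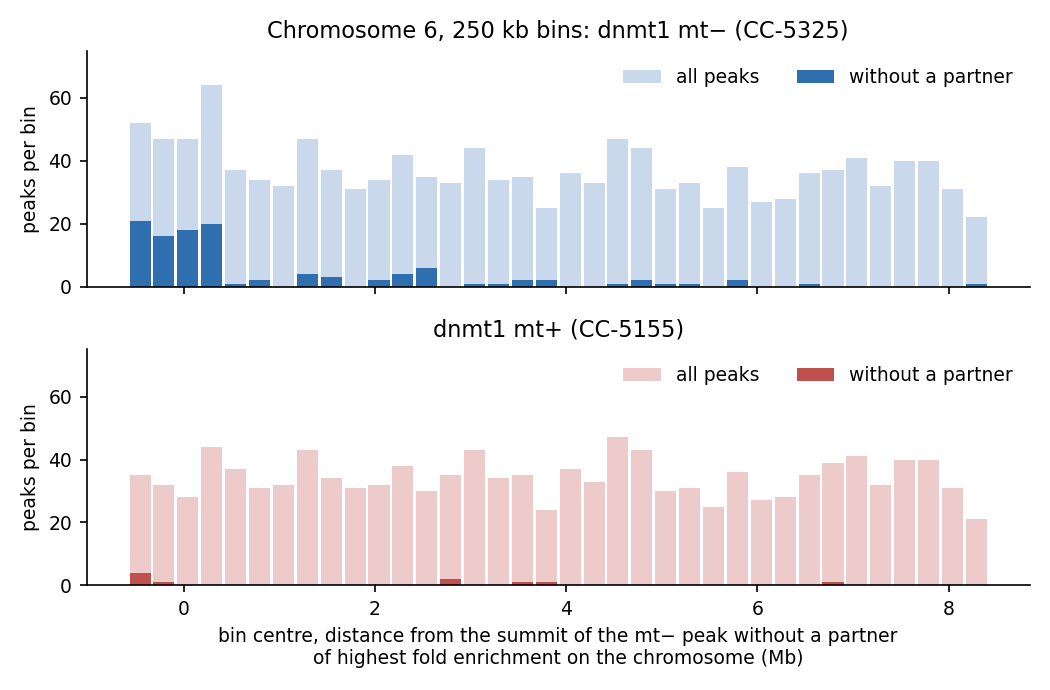
Number of H3K27ac peaks per 250 kb bin of chromosome 6 in dnmt1 mt− (top) and dnmt1 mt+ (bottom), with peaks that have no partner in the other list in the darker colour. The x axis is the distance in Mb of each bin's centre from the summit of the mt− peak of highest fold enrichment without a partner; the 4 bins on the left hold 16 to 21 unpartnered mt− peaks each.

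All 8 unpartnered mt− peaks of chromosome 6 that ranked above the median of their list lay in the first 1 Mb. The first by fold enrichment, at chromosome 6, 583119 to 584264, had a fold enrichment of 10.3 and lay at percentile 99.8, with 98.0 in WT mt−. The nearest mt+ peak was only 210 bp away. Next came 579641 to 581166, with 8.29 at percentile 91.4, and 640110 to 641095, with 7.18 at percentile 77.5. The peaks at 469849 to 470740 and 604480 to 605627 had fold enrichments of 6.65 and 6.65, at percentiles 57.0 and 69.9. All 5 had a peak in WT mt− and none in WT mt+, and the WT mt− percentiles of the last 4 were 79.4, 59.2, 44.1 and 85.5.

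Weak peaks in close rows formed the other kind of unpartnered signal. Between positions 233970 and 263650 the mt− knockout had 21 successive peaks with no mt+ peak between them, in 29.7 kb. Their fold enrichment started at 2.28 and had a median of 2.82, their median width was 460 bp and their summits were a median of 1218.5 bp apart. All 21 had a peak in WT mt− and 1 had one in WT mt+. A second row of 5 peaks, from 469849 to 481194, began with the strong peak named above, and its median fold enrichment was 3.34. In the whole mt− list 11 rows of 3 or more unpartnered peaks were found, and 7 were on chromosome 6. The largest row elsewhere, 6 peaks at chromosome 1, 5858326 to 5869135, had fold enrichments of 2.21 to 2.39.

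The 10 mt+ peaks of chromosome 6 without a partner were weak, with fold enrichments of 1.85 to 3.57. In the first 1 Mb lay 5 of them, among 139 mt+ peaks (3.60%, interval 1.18 to 8.19). The rest of the chromosome had 5 among 1095 (0.457%, interval 0.148 to 1.06). The 5 of the first 1 Mb all had a peak in WT mt+ and 0 had one in WT mt−, against 99.3% and 95.7% of all 139. A row of 3, starting at 80041, 81061 and 81936, lay near the start of the chromosome, and its strongest peak (3.57) was 38 bp from an mt− peak. The peaks at 207889 to 208215 and 4498192 to 4498412 had 2.93 and 2.58. All but the last of the 5 peaks named here also had a peak in WT mt+, and none had one in WT mt−.

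The WT lists separated the first 1 Mb of chromosome 6 from the other sequences. Of its 75 unpartnered mt− peaks 66 had a peak in WT mt− and 5 had one in WT mt+. Over all 210 mt− peaks of the stretch, 94.8% had a peak in WT mt− and 65.7% in WT mt+. On the rest of chromosome 6 the counts were 25 and 19 of 37, against 97.5% and 97.1% of all 1121 mt− peaks there. On all other sequences the counts were nearly equal, at 209 of 401 for WT mt− and 204 for WT mt+. Of these 401 peaks, 147 had a peak in both and 135 in neither. The 99 mt+ peaks there were likewise split, where 43 overlapped WT mt+, 50 overlapped WT mt− and 36 overlapped neither. Over all peaks of those sequences, 97.0% of mt− peaks had a WT mt− peak and 98.0% of mt+ peaks had a WT mt+ peak.

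Outside chromosome 6 and mating_type_plus, unpartnered peaks were mostly the weakest and narrowest of their lists. The 401 mt− peaks had a median width of 280 bp and a median fold enrichment of 2.12, against 818 bp and 5.83 for all mt− peaks of these sequences. The 99 mt+ peaks also had a median width of 280 bp, with a median fold enrichment of 2.17. Of the mt− peaks 380 and of the mt+ peaks 79 lay in the lowest 10 percent of their list by −log10 q. With the mt− list cut to the length of the mt+ list, the counts became 226 for mt− and 214 for mt+. The excess of mt− over mt+ peaks shrank, but this cut can only lower the mt− count and raise the mt+ count. On chromosome 6 it gave 85 mt− and 28 mt+ peaks, against 112 and 10 with the full lists.

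Among stronger peaks chromosome 6 differed in share from the other sequences, mostly through its first 1 Mb. Beyond that stretch, 35 of its 37 unpartnered mt− peaks lay in the lowest 10 percent of the list and 0 above the median. Between percentiles 10 and 20 of the mt− list, 26 of 142 peaks on chromosome 6 had no partner (18.3%), against 16 of 1390 on other sequences (1.15%). Above the median it was 8 of 667 on chromosome 6 and 0 of 6992 elsewhere. In the lowest 5 percent the shares were closer, at 54.4% and 43.6%. For the mt+ list the shares in that lowest class were 7.69% on chromosome 6 and 8.81% on other sequences.

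**Figure D3:**
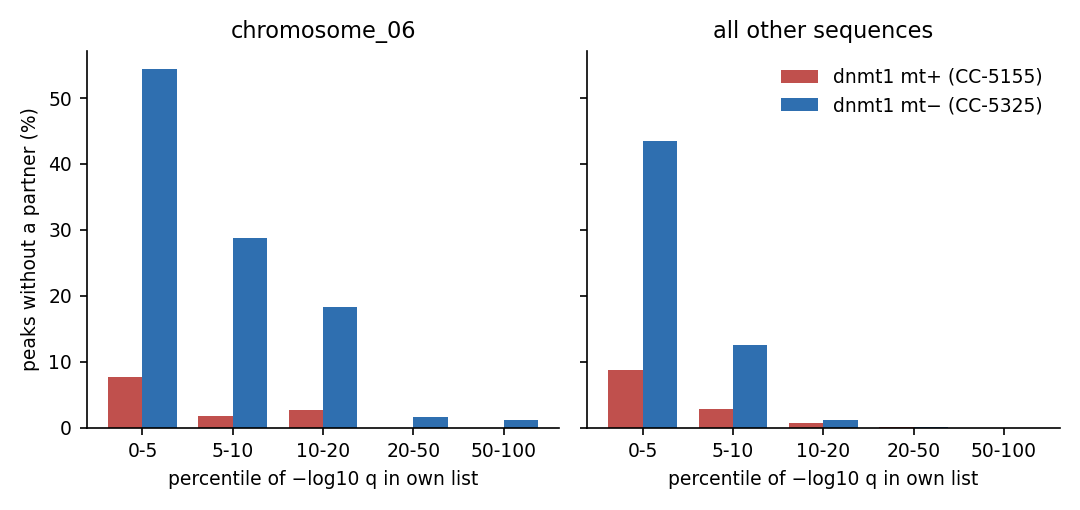
Share of peaks without a partner (%) by percentile of −log10 q within the peak's own list, for chromosome_06 (left) and all other sequences (right), in dnmt1 mt+ and dnmt1 mt−. The mt− bars fall from 54.4% to 1.20% on chromosome 6 and from 43.6% to 0% on the other sequences.

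A few unpartnered peaks of the other sequences were strong, and these were mt+ peaks on chromosomes 17 and 7. The peak at chromosome 17, 4536955 to 4537491, had a fold enrichment of 7.31 at percentile 74.3, with the nearest mt− peak 5194 bp away. A second at chromosome 17, 5246074 to 5247179, had 7.03 at percentile 72.9. Both also had a peak in each WT list, at percentiles 72.0 and 64.6 for the first and 54.5 and 61.6 for the second, so dnmt1 mt− was the library without a peak. The same held for a weaker peak at 4547440 to 4547885 (fold enrichment 3.91). At chromosome 7, 107479 to 108277, the mt+ knockout (6.56, percentile 64.0) and WT mt− (6.42, percentile 65.7) had a peak, and the other libraries did not. The fifth was at chromosome 11, 147867 to 148124, with 3.37.

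The strongest mt− peaks without a partner on these sequences were weaker, and none reached the median of the list. At chromosome 3, 3413195 to 3413621 and 4214780 to 4215383, the fold enrichments were 4.53 and 4.41, and WT mt+ but not WT mt− had a peak. At chromosome 12, 1892009 to 1892616, and chromosome 16, 3383615 to 3384211, they were 4.44 and 4.10 with no peak in WT, and the chromosome 16 peak was 28814 bp from any mt+ peak. The peak at chromosome 17, 864166 to 864454 (3.93), was in both WT lists. By chromosome, the mt− share ran from 1.41% on chromosome 10 to 4.36% on chromosome 15, and the mt+ share from 0% of 449 peaks on chromosome 5 to 1.94% on chromosome 15. Of the 11 unpartnered mt+ peaks of chromosome 15, 5 lay near its start, beginning at 9395, 22250, 35095, 47937 and 60794. They were broad, at 1038 to 1078 bp, with fold enrichments of 2.50 to 3.09 and percentiles of 19.4 to 29.9. Another 3 began at chromosome 3, 9237323, 9253998 and 9276343, with widths of 282, 909 and 1131 bp. All 8, named after their values were seen, had a peak in WT mt− and none in WT mt+. Contigs and the mitochondrial sequence added 10 mt− and 4 mt+ peaks. Of these mt− peaks 3 lay on the mitochondrial sequence, where the mt+ list had none. Their fold enrichments were low, at 1.23 to 1.52, and none had a peak in either WT list.

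Broad peaks were at times split differently in the lists. In mt− 117 peaks met more than one mt+ peak, and in mt+ 67 peaks met more than one mt− peak, with median widths of 1552 and 1693 bp. They ranked in the upper part of their lists, at median percentiles of 59.6 and 66.2. Chromosome 15 had the extremes. There an mt− peak of 7239 bp, at 2645304 to 2652542, covered 5 mt+ peaks that together spanned 6566 bp. An mt+ peak of 9194 bp, at 2695001 to 2704194, met 3 mt− peaks with 8916 bp in all. Over all such peaks the summed width of the partners was a median of 0.856 times that of the mt− peak and 0.891 times that of the mt+ peak, with ranges of 0.494 to 1.62 and 0.578 to 1.18.

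The 14558 one-to-one pairs were nearly the same intervals. The median ratio of mt− over mt+ width was 1.02 on all other sequences (13348 pairs, quartiles 0.976 and 1.08) and 1.03 on chromosome 6 (1203 pairs, quartiles 0.980 and 1.10). Summits were a median of 34 and 36 bp apart, and 63.7% and 60.5% of pairs had summits within 50 bp. Of all pairs 4.3% had summits more than 200 bp apart, 1.77% were at least 1.5 times wider in mt−, and 62.6% were wider in mt− by any amount. Width differences were larger among weak pairs. In the class of pairs with a mean percentile under 10 the median log2 width ratio was 0.19, and in the class above 90 it was 0.0036.

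Rank differences were described by class of mean percentile, a scale that itself bounds the difference near 0 and 100. The percentile difference, mt− minus mt+, had a median of 1.11 points on other sequences and 1.81 points on chromosome 6. Ranked among the one-to-one pairs alone, where both sides have the same number of peaks, these medians were -0.0206 and 0.756. The interquartile range of the difference was 4.93 points for pairs with a mean percentile under 10, 19.3 points between percentiles 60 and 70, and 5.61 points above 90. In all, 16.6% of pairs ranked at least 10 points higher in mt− and 12.5% at least 10 points lower.

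**Figure D4:**
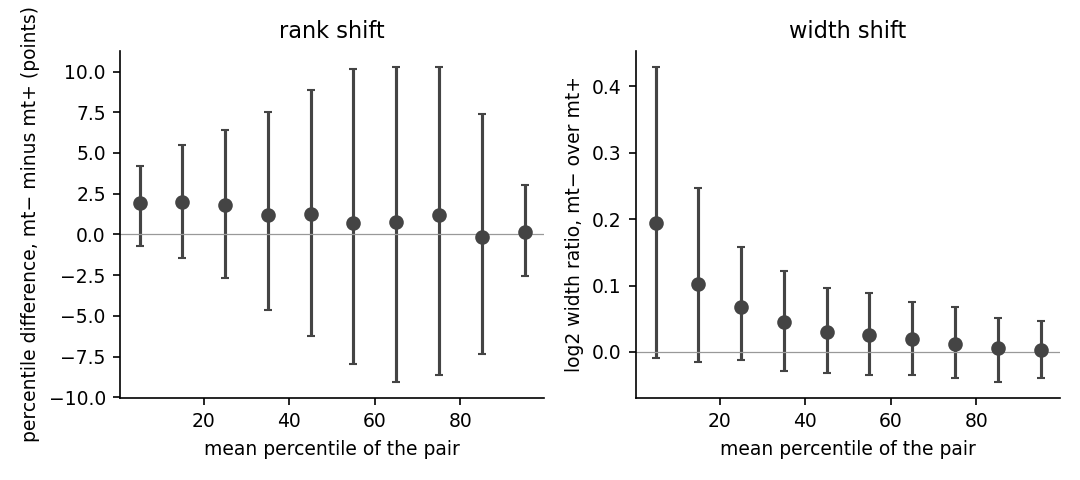
Percentile difference (mt− minus mt+, points) and log2 width ratio (mt− over mt+) of one-to-one pairs by the mean percentile of the pair in classes of 10 points; points are medians and bars reach the quartiles. Rank differences spread most between percentiles 50 and 80, and the width ratio falls from 0.19 in the lowest class to 0.0036 in the highest.

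The first 1 Mb of chromosome 6 held the larger width differences of that chromosome. Its 133 pairs had a median width ratio of 1.10, and 75.2% were wider in mt−. At least 1.5 times wider were 14 of them (10.5%), against 22 of 1070 on the rest of the chromosome (2.06%) and 221 of 13348 on other sequences (1.66%). The opposite direction was more frequent there too, with 3 of 133 pairs at least 1.5 times narrower (2.26%), against 0.187% on the rest of the chromosome and 0.255% on other sequences. The bin from 750001 to 1000000 had the highest median log2 ratio of the 4, at 0.25 over 44 pairs. Median summit distance was 47 bp, against 34 bp on the rest of the chromosome.

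The pairs of chromosome 6 that changed most in width included this stretch too. At 270938 to 271161 an mt+ peak of 224 bp met an mt− peak of 1418 bp, at 270480 to 271897, which is 6.33 times wider with a summit 600 bp away. Its percentile was 5.65 in mt+ and 42.6 in mt−. At 464783 to 465083 the widths were 301 and 995 bp, and 320 and 949 bp in WT. Farther along, a weak pair at 5226617 to 5226857 had 241 and 650 bp. The narrowest mt− peaks relative to mt+ were at 135348 (460 and 216 bp), 67799 (1103 and 650 bp) and 2018640 (397 and 236 bp). Those of 67799 measured 1073 and 634 bp in WT, and those of 135348 measured 568 and 434 bp, a smaller difference. The pairs at 270938, 5226617 and 2018640 could not be followed into WT.

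Among the largest rank differences on chromosome 6, 3 of the 4 in the first 1 Mb that could be followed into WT recurred there. The mt+ peak at 67799 to 68901 lay at percentile 78.4 and its mt− partner at 14.3, with 64.7 and 14.9 in WT. At 648368 to 649136 the values were 80.5 and 43.0, with 64.1 and 35.2 in WT, and at 564746 to 565326 they were 22.5 and 58.8, with 24.6 and 51.7 in WT. The pair at 203017 to 203836 went against this, with 73.0 and 38.8 in the knockouts but 84.9 and 83.0 in WT. Beyond the first 1 Mb the rises at 8624461 (43.8 to 82.0), 3472570 (50.5 to 85.8) and 8775100 (50.0 to 81.6) had WT differences of 4.10, 4.53 and -2.30 points. The falls at 3560863 (43.0 to 8.56) and 1317282 (57.5 to 23.9) had WT differences of -16.7 and -19.8 points.

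On the other sequences the largest rank differences mostly did not recur in WT. At chromosome 4, 2293905 to 2295306, the percentile was 41.3 in mt+ and 90.6 in mt−, and 70.4 and 74.4 in WT. The next rises were on chromosome 9 at 5567515 (46.4 to 93.6) and 2442204 (51.0 to 96.3), chromosome 12 at 3707426 (35.7 to 80.0) and chromosome 5 at 2580252 (43.1 to 87.2). In WT these 4 differed by -16.6, -3.04, -0.993 and -1.96 points. Falls were led by chromosome 10, 6145108 to 6145994, from percentile 52.7 to 1.22, where the mt− peak spanned 304 bp and the mt+ peak 887 bp, and no matching pair was found in WT. The other falls were at chromosome 10, 5715600 (88.1 to 41.5), chromosome 17, 1942946 (96.2 to 53.8) and 3152088 (95.6 to 53.4), and chromosome 9, 4795146 (81.1 to 39.7). In WT these 4 differed by 13.0, 10.8, -30.7 and -6.56 points, so the pair at 3152088 was the one that recurred at a similar size.

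The largest width differences on the other sequences were mostly, but not only, at weak peaks. Exceptions were chromosome 10, 6145108 (percentile 52.7 in mt+ and 1.22 in mt−) and chromosome 15, 141812 (20.9 and 27.2). Widest in mt− relative to mt+ were the pairs at chromosome 16, 6025544 (451 and 1384 bp) and 5307825 (331 and 974 bp), and chromosome 2, 619359 (245 and 725 bp). In WT the mt+ and mt− widths were 1038 and 1485 bp, 391 and 273 bp, and 268 and 319 bp. Narrowest, beside the chromosome 10 pair above, were chromosome 17, 2362981 (711 and 224 bp) and chromosome 15, 141812 (1111 bp in mt+, with a mt− over mt+ ratio of 0.400). The chromosome 15 pair was turned around in WT, with 404 and 1215 bp.

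The pairs with the largest summit distances, 3 on chromosome 6 and 3 on other sequences, were broad peaks with nearly matching borders. On chromosome 6 the summits of the pair at 5063253 to 5066014 were 808 bp apart, while the peaks spanned 2762 and 2744 bp. Those at 2320715 (773 bp) and 2614486 (708 bp) likewise had width ratios of 1.01 and 1.02. Smaller but still distant summits also came with unequal widths, as at chromosome 6, 270938 and 67799. On other sequences the largest distances were at chromosome 12, 891240 (1369 bp) and 5161222 (1340 bp), and chromosome 16, 5366293 (1120 bp). In WT the summits at 891240 were also apart, by 1357 bp, whereas at 5161222 and 5366293 they were 78 and 28 bp apart. The chromosome 6 pairs at 5063253, 2320715 and 2614486 had WT summit shifts, mt− minus mt+, of only 12, 6 and -5 bp.

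Over all pairs that could be followed into the WT lists, width differences between the mating types recurred on mating_type_plus and at the start of chromosome 6. Rank differences recurred at the start of chromosome 6. On mating_type_plus they recurred in part and changed sign at 1786, 149291 and 159536. On the rest of chromosome 6 and all other sequences both kinds of difference recurred little. Over the 7 pairs of mating_type_plus the Pearson correlation across sites, knockouts against WT, was 0.674 for the percentile difference and 0.957 for the log2 width ratio. In the first 1 Mb the percentile difference of the knockouts and that of WT had a Pearson correlation across sites of 0.559 (Spearman 0.462, 130 pairs), and the log2 width ratios one of 0.730. On the rest of chromosome 6 these were 0.0741 and 0.113 (1041 pairs), and on all other sequences 0.0195 and 0.0545 (12863 pairs). Over the other 16 chromosomes the rank correlation ranged from -0.0268 to 0.101, and over 112 other windows of 1 Mb with at least 50 pairs from -0.239 to 0.291. The width correlation over those windows ranged more widely, from -0.411 to 0.418. All sites of a correlation share the same 4 libraries, and sites are not replicates.

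Directions were then counted. Of 26 pairs in the first 1 Mb that ranked at least 10 points higher in dnmt1 mt−, 20 also ranked higher in WT mt−, and of 21 at least 10 points lower, 17 were lower in WT mt−. On mating_type_plus no pair ranked at least 10 points higher, and 4 of the 6 pairs at least 10 points lower were also lower in WT mt−. Among these 4, the pair at 353244 differed by only -1.08 points in WT. On other sequences the counts were 1079 of 2163 and 817 of 1619. Over all pairs of the first 1 Mb, 48.5% ranked higher in WT mt−, on other sequences 51.4%, and on mating_type_plus 28.6% of 7. Most of those 7 were thus lower in WT mt− in any case, so the 4 of 6 shows no added recurrence of direction.

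**Figure D5:**
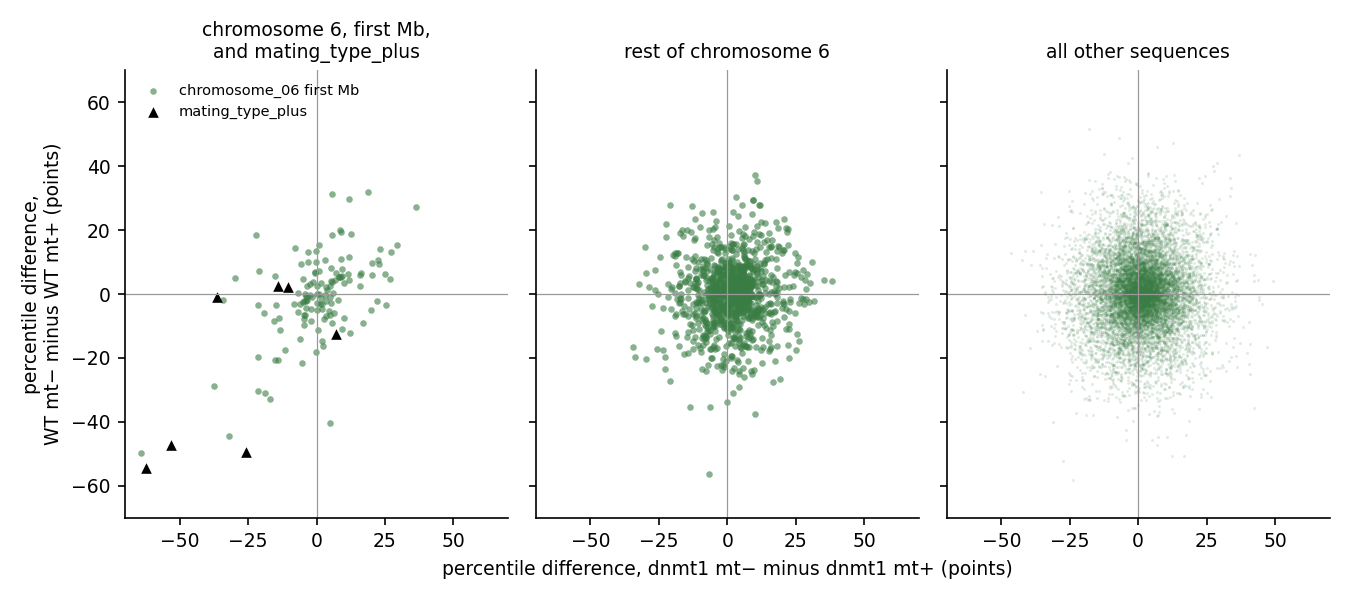
Percentile difference between mating types (mt− minus mt+, points) in the dnmt1 pair (x axis) and the WT pair (y axis) for each one-to-one pair found in all 4 lists; triangles are the 7 pairs of mating_type_plus. The points of the first 1 Mb of chromosome 6 (130 pairs) rise together, and those of the rest of chromosome 6 (1041) and of all other sequences (12863) form a round cloud.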

How the data were processed

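Per the labels' protocols, fixation was in 0.35% formaldehyde, and the anti-H3K27ac libraries were amplified over 14 cycles. Tools named, per the submitters' processing notes, are MACS2 2.2.7.1 for peaks, Bowtie2 2.4.2 for alignment, Trim Galore 0.6.7, deepTools 3.5.1 and Picard. Their options and the genome build are not given in the sources used. The authors deposited 1 peak list per library, with a score (10 times −log10 q), a fold enrichment ratio, −log10 p-value, −log10 q-value and summit per peak. All peak values are the authors' own. The lowest deposited −log10 q was 2.17 in dnmt1 mt+ and 2.01 in dnmt1 mt−. These lists shared 2 identical intervals, so neither is a copy of the other.

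Partners, pairs, percentiles and rows of peaks were computed with Python 3.11.15, numpy 2.4.6, pandas 2.3.3 and scipy 1.17.1, and figures with matplotlib 3.10.9. Coordinates count from 1 in the deposited build. Peaks were not assigned to genes, because on 12 of 17 chromosomes peaks lay beyond the last gene of the v5.5 table at hand, by up to 3905 kb. A pair was followed into WT where each peak met exactly 1 WT peak of its strain and these met each other. Named are the 5 unpartnered peaks of highest fold enrichment per list and class of sequences, and per class the 5 largest rank rises and falls, 3 widest, 3 narrowest and 3 largest summit distances. Rows of peaks and the first 1 Mb of chromosome 6 were chosen after their values were seen, and members and lists with earlier results of these data known. Alternatives were an overlap of 50% of the shorter peak, summits within 200 bp, gaps of up to 500 bp, a −log10 q of at least 10, equal list lengths, peaks above the median, numbered chromosomes, and other ranks.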

Additional observations from a re-analysis of the deposited data

How the results depend on the processing

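Of 77 alternative values for the counts and medians of the 3 classes of sequences, 57 stayed within 1.5 times the main count or within the 95% interval of the main median. Some of these could hardly have moved. For the few pairs of mating_type_plus the interval is their full range, and ranking by −log10 p gave the same medians as −log10 q in all 3 classes. Requiring summits within 200 bp raised unpartnered peaks to 78 (mt+) and 175 (mt−) on chromosome 6 and to 787 and 1041 on other sequences. Lists of equal length gave 28 mt+ peaks on chromosome 6, 214 mt+ and 226 mt− peaks on other sequences, and median percentile differences of 0.911 on chromosome 6 and 0.0200 on other sequences; ranking among pairs alone gave 0.756 and -0.0206. Above the median of the own list there were 8 mt+ peaks on mating_type_plus, 0 on chromosome 6 and 3 elsewhere, and 0, 8 and 0 mt− peaks. The 1 mt− peak of mating_type_plus was lost (0) with gaps of up to 500 bp or a −log10 q of at least 10, which also moved the median log2 width ratio of other sequences to 0.027. Ranking by fold enrichment turned 2 named differences, at mating_type_plus 149291 (39.1 points) and 155292 (4.66 points). It moved 11 others by more than the standard deviation of their class, with no change of direction. Among these 11 only 144969 changed by more than 1.5 times (-36.8 points). On mating_type_plus that standard deviation was 24.6 points. Within it, 159536 went from 7.26 to 19.4 points and 1786 from -14.1 to -21.6 points. With gaps of up to 500 bp, 4 of 26 named peaks gained a partner: chromosome 6, 583119 and 81936, chromosome 3, 3413195, and mating_type_plus 363994. The causes were not tested beyond what each setting changes by construction. No paired analysis was possible because each group has 1 library. Depth is unknown, and most unpartnered peaks outside mating_type_plus and the start of chromosome 6 lay in the lowest 10 percent of their list. Whether these owe to the authors' threshold was not tested. On other sequences 126 of 401 mt− and 41 of 99 mt+ unpartnered peaks, of any rank in their list, had a −log10 q of at least 10. Keeping only peaks with such a value in both lists gave 455 and 118 unpartnered peaks there. That cut also removes partners with a lower value, so by construction it can leave further peaks without a partner.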
